A study of Mus musculus with 2 samples.

Results

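Ion and water transport genes are described here in small intestinal epithelial cells grown as cystic spheres in collagen gel or as budding organoids in Matrigel. The 9 genes were picked by name from the expression table of 37172 genes, for their roles in the secretion or absorption of salt and water. They are Cftr, Kcnq1, Kcne3 and Slc4a4, whose products take part in anion secretion, Slc9a3, which absorbs sodium, Atp1b1, a subunit of the sodium pump, and the water channel genes Aqp1, Aqp4 and Aqp11. All 9 had their own entry in the table. The rule goes by name and uses no measured value, but the genes were chosen with earlier results of these data known. Their counts beside all genes are therefore descriptions only.

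Cells in both cultures came from the proximal small intestine of wild-type C57BL/6 mice, a common inbred laboratory strain, and were sampled on day 4. Collagen cells grew in type I collagen, in a medium with EGF, Noggin and R-spondin1 plus 100 ng/mL Wnt3a, 10 mM nicotinamide and 1% BSA, and were freed with collagenase at 0.5 mg/mL. Matrigel cells grew in a basement membrane extract with EGF at 50 ng/mL, Noggin at 100 ng/mL and R-spondin1 at 400 ng/mL, and were freed with Cell Recovery Solution. Matrix, release reagent and the Wnt3a, nicotinamide and BSA named for collagen differed together, so their parts in any difference cannot be told apart. Each culture gave 1 cell suspension, marked by its own hashtag (a barcode bound through an EpCAM antibody), and both were captured in 1 pool. The sources used here do not give the number of mice. With 1 suspension per culture there is no test between cultures, and no p-value is given. Intervals beside levels and shares are exact 95% Poisson and Clopper-Pearson binomial intervals, and they cover counting error only.

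Fluid moves across the intestinal wall by osmosis, following ions that the epithelium pumps. In secretory cells, mainly of the crypt, chloride is loaded through the basolateral side by the cotransporter Slc12a2 and leaves through the apical channel Cftr, while potassium recycles through the basolateral channel formed by Kcnq1 and Kcne3. In absorptive cells, mainly of the villus, the exchanger Slc9a3 takes up sodium at the apical side, and the sodium pump expels it on the other side.

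The deposited table held 336 collagen cells and 1615 Matrigel cells, of which 336 and 1599 were kept. Summed counts were 42540314 in collagen and 285201649 in Matrigel, so that Matrigel levels carry the smaller counting error. A collagen cell had a median of 124619 counts, against 179044 in a Matrigel cell, and 0 barcodes were shared between cells. All 6 epithelial markers were detected in both cultures, and Epcam, an epithelial adhesion protein, was at 1458 CPM (counts scaled to a total of 1000000) in collagen and 1076 CPM in Matrigel. Fibroblast markers (5 genes) summed to 1.02 CPM in collagen and 0.939 CPM in Matrigel, immune markers (5 genes) to 1.26 and 1.03 CPM in the same order, and endothelial markers (4 genes) to 1.83 and 1.69 CPM. The epithelial makeup differed: 6 stem cell markers summed to 148 CPM in collagen and 2238 CPM in Matrigel, and 6 regenerative markers to 957 CPM and 26.7 CPM. The part of this makeup in the values below was not tested.

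The largest difference among these genes was in water channels. Aqp4 was 53.2-fold lower in collagen cells than in Matrigel cells, Aqp1 was 7.28-fold lower, and Aqp11 was 1.64-fold higher. Folds of single genes in this paragraph are quotients of CPM with nothing added. The log2 ratios and the 2-fold calls have 1 CPM added to each level, which makes large ratios of low genes smaller. Of the secretory genes, Kcnq1 was 2.22-fold lower in collagen cells, while Cftr was 1.32-fold lower and Kcne3 and Slc4a4 differed by less than that. The sodium pump subunit Atp1b1 was at a like level in both cultures, and the sodium absorber Slc9a3 was near the detection limit in both. Of the 9 genes, 8 reached 5 CPM in either culture; 0 of these were at least 2-fold higher in collagen and 3 were at least 2-fold lower. Among all 10593 genes reaching 5 CPM, 8.21% were at least 2-fold higher in collagen and 8.91% at least 2-fold lower. At a limit of 1.5-fold, 1 of the genes was higher and 3 were lower, against 18.0% and 19.1% of all genes reaching 5 CPM. The median log2 ratio of collagen over Matrigel, with 1 CPM added to each, was -0.24 over the 8 genes and -0.02 over all genes reaching 5 CPM.

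**Figure D1:**
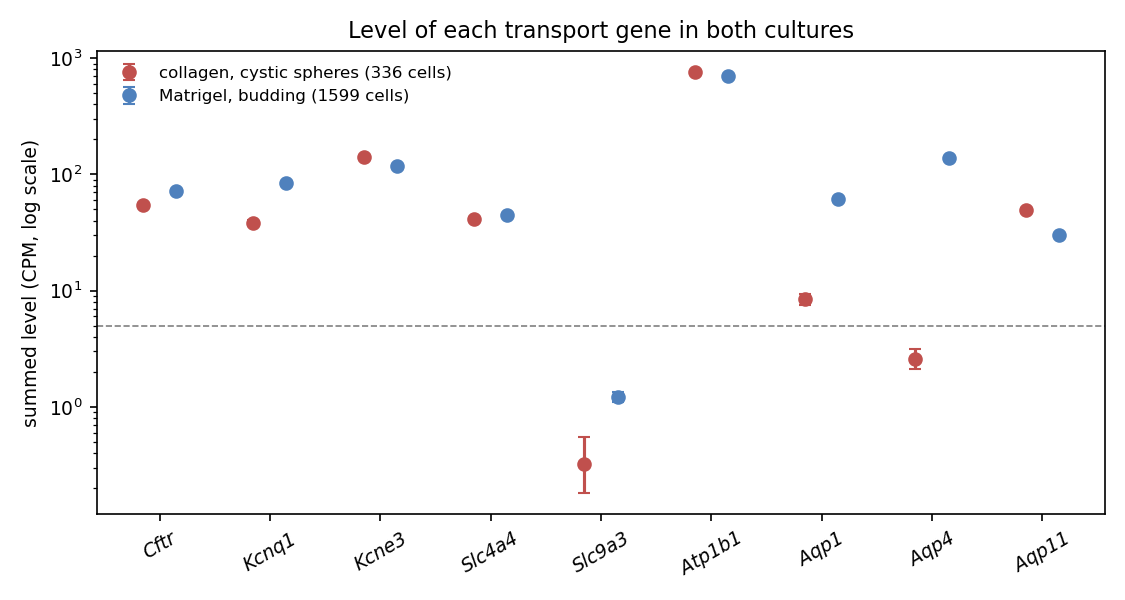
Summed level of each transport gene in collagen cells (left of each pair) and Matrigel cells, in CPM on a log axis, with exact 95% Poisson intervals that cover counting error only; the dashed line is 5 CPM. Aqp4 and Aqp1 lie far lower in collagen, Aqp11 higher, and Atp1b1 about level; heights of different genes are not comparable, because levels are not per length.

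Cftr, the cyclic AMP-gated chloride and bicarbonate channel of the apical membrane, was at 54.9 CPM (52.7 to 57.1) in collagen cells and 72.3 CPM (71.4 to 73.3) in Matrigel cells, a log2 ratio of -0.39. The intervals do not overlap, but the gap is small beside the spread over cells: the middle 50% of cells ran from 0 to 74.6 CPM in collagen and from 28.4 to 101 CPM in Matrigel. More collagen cells lacked a count. After every cell was thinned to 77972 counts, which left 264 collagen and 1477 Matrigel cells, Cftr was seen in 66.3% (60.2 to 72.0) of collagen cells and 89.8% (88.1 to 91.3) of Matrigel cells. Without thinning the shares were 62.8% of 336 collagen cells and 92.5% of 1599 Matrigel cells. Thinning left out the shallower cells, and 2 of the 25 cells of the smaller collagen cluster 10, described below, remained. The collagen signal was thus concentrated in fewer cells, with a 95th percentile of 226 CPM per cell in collagen and 204 CPM in Matrigel.

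Kcnq1, the pore of the basolateral potassium channel, was at 38.4 CPM (36.5 to 40.2) in collagen cells and 85.0 CPM (83.9 to 86.0) in Matrigel cells, a log2 ratio of -1.13. Thinned cells with a count made up 64.0% of collagen cells and 94.3% of Matrigel cells, and 70.8% and 95.6% before thinning. Level and share were both lower in collagen. The antisense RNA Kcnq1ot1, which overlaps Kcnq1, was at 0.418 CPM in collagen cells and 0.473 CPM in Matrigel cells. The sources used here do not say whether counting used the strand, and without it reads of the overlap cannot be told apart.

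Kcne3, the subunit that keeps the Kcnq1 channel open, was at 142 CPM (138 to 145) in collagen cells and 118 CPM (117 to 119) in Matrigel cells, a log2 ratio of 0.26. Its share of thinned cells with a count ran the other way, at 80.3% of collagen cells and 90.7% of Matrigel cells, and also before thinning, at 74.1% and 89.2%. Because level and share disagree, no order between the cultures is read for Kcne3. The upper end of the cells was further out in collagen, with a 95th percentile of 430 CPM per cell against 272 CPM in Matrigel.

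Slc4a4, a sodium bicarbonate cotransporter that loads bicarbonate through the basolateral side, was at 41.4 CPM (39.5 to 43.4) in collagen cells and 44.3 CPM (43.6 to 45.1) in Matrigel cells. The log2 ratio was -0.10, and it was 0.09 when each cell had equal weight, so no direction is given. Its thinned share was 54.2% of collagen cells and 79.6% of Matrigel cells, and 61.3% and 85.8% before thinning. The collagen counts were again held by fewer cells, and the highest 1% of cells held 13.1% of them in collagen and 5.37% in Matrigel.

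Other genes of ion and water transport were taken from 7 lists, chosen with earlier results of these data known. The lists also hold the 9 genes above. Of their 95 genes in the table, the 9 included, 52 reached 5 CPM. Of these 52, 8 were at least 2-fold higher in collagen (15.4%), 7 were at least 2-fold lower (13.5%) and 37 lay within 2-fold. The 7 lower genes include Kcnq1, Aqp1 and Aqp4, already counted above, and Guca2a, for which no direction is read below. The median log2 ratio of the 52 was 0.04. Among all genes reaching 5 CPM, 8.21% were at least 2-fold higher in collagen and 8.91% at least 2-fold lower. Ano1, a calcium-activated chloride channel, was at 79.5 CPM (76.8 to 82.2) in collagen cells and 3.07 CPM (2.87 to 3.28) in Matrigel cells, a log2 ratio of 4.31, or 3.39 with 5 CPM added. Slc12a2, the chloride loader, went the other way, at 123 CPM (120 to 127) in collagen cells and 538 CPM (536 to 541) in Matrigel cells, a log2 ratio of -2.12. The apical channel and the loader of the same path were thus at unequal ratios between the cultures, with Cftr at -0.39 and Slc12a2 at -2.12 on the log2 scale.

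Of the genes listed as apical anion channels and exchangers, whose membrane side was not measured, 6 reached 5 CPM. Of these 6, 3 were at least 2-fold higher in collagen and 0 were at least 2-fold lower. The shares over all genes reaching 5 CPM were 8.21% higher and 8.91% lower. Beside Ano1, the higher genes were the anion exchanger Slc26a6, at 23.5 CPM in collagen cells and 3.84 CPM in Matrigel cells, and the sulfate transporter Slc26a2, at 59.3 and 24.0 CPM in the same cultures. The log2 ratio of Slc26a6 was 2.34; it was 1.69 with 5 CPM added and 2.95 without clusters led by markers of differentiated cells. The chloride channel Clcn2 had a log2 ratio of 0.72, and Slc26a3, an exchanger that absorbs chloride, one of -0.83, both within 2-fold, although Slc26a3 just passed it in thinned cells. The median of the 6 was 0.99, against -0.02 for all genes reaching 5 CPM.

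Of 6 potassium channel genes reaching 5 CPM, 1 was at least 2-fold higher and 1, Kcnq1, at least 2-fold lower. Over all genes reaching 5 CPM, the shares were 8.21% higher and 8.91% lower. The higher gene was Kcnk6, a potassium leak channel, at 21.7 CPM in collagen cells and 2.73 CPM in Matrigel cells, a log2 ratio of 2.60 (1.79 with 5 CPM added). Kcnn4, the calcium-activated channel that also recycles potassium, was at 36.7 CPM in collagen cells and 60.2 CPM in Matrigel cells, and the leak channel Kcnk1 was at 65.4 CPM in collagen cells and 76.5 CPM in Matrigel cells; both lay within 2-fold.

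The 10 chloride and bicarbonate loading genes reaching 5 CPM lay on both sides, with 3 at least 2-fold higher, 3 at least 2-fold lower and a median log2 ratio of 0.05. Each side thus held 30.0% of these loading genes, beside 8.21% (higher) and 8.91% (lower) over all genes reaching 5 CPM. Carbonic anhydrases, which make bicarbonate from carbon dioxide, were among the higher and the lower genes. The cytosolic Car2 was at 48.3 CPM in collagen cells and 7.77 CPM in Matrigel cells (log2 ratio 2.49). Car13 was at 32.3 and 14.8 CPM in collagen and Matrigel (1.07), and Car9, a membrane form, at 217 and 106 CPM (1.03). Both were close to 2-fold and dropped below it in some alternatives, Car13 at 0.91 with 5 CPM added and 0.98 in thinned cells, Car9 at 0.95 without mitochondrial and ribosomal genes in the total and just below 1 with the 60% hashtag share. Car12, another membrane form, was lower in collagen, at 5.14 CPM against 33.9 CPM in Matrigel (-2.51), with 71.1% of its values whole. The third gene on the lower side beside Slc12a2 and Car12 was Slc4a5, named because the count is small, with a log2 ratio of -1.72. The anion exchanger Slc4a2 was within 2-fold (0.57).

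**Figure D2:**
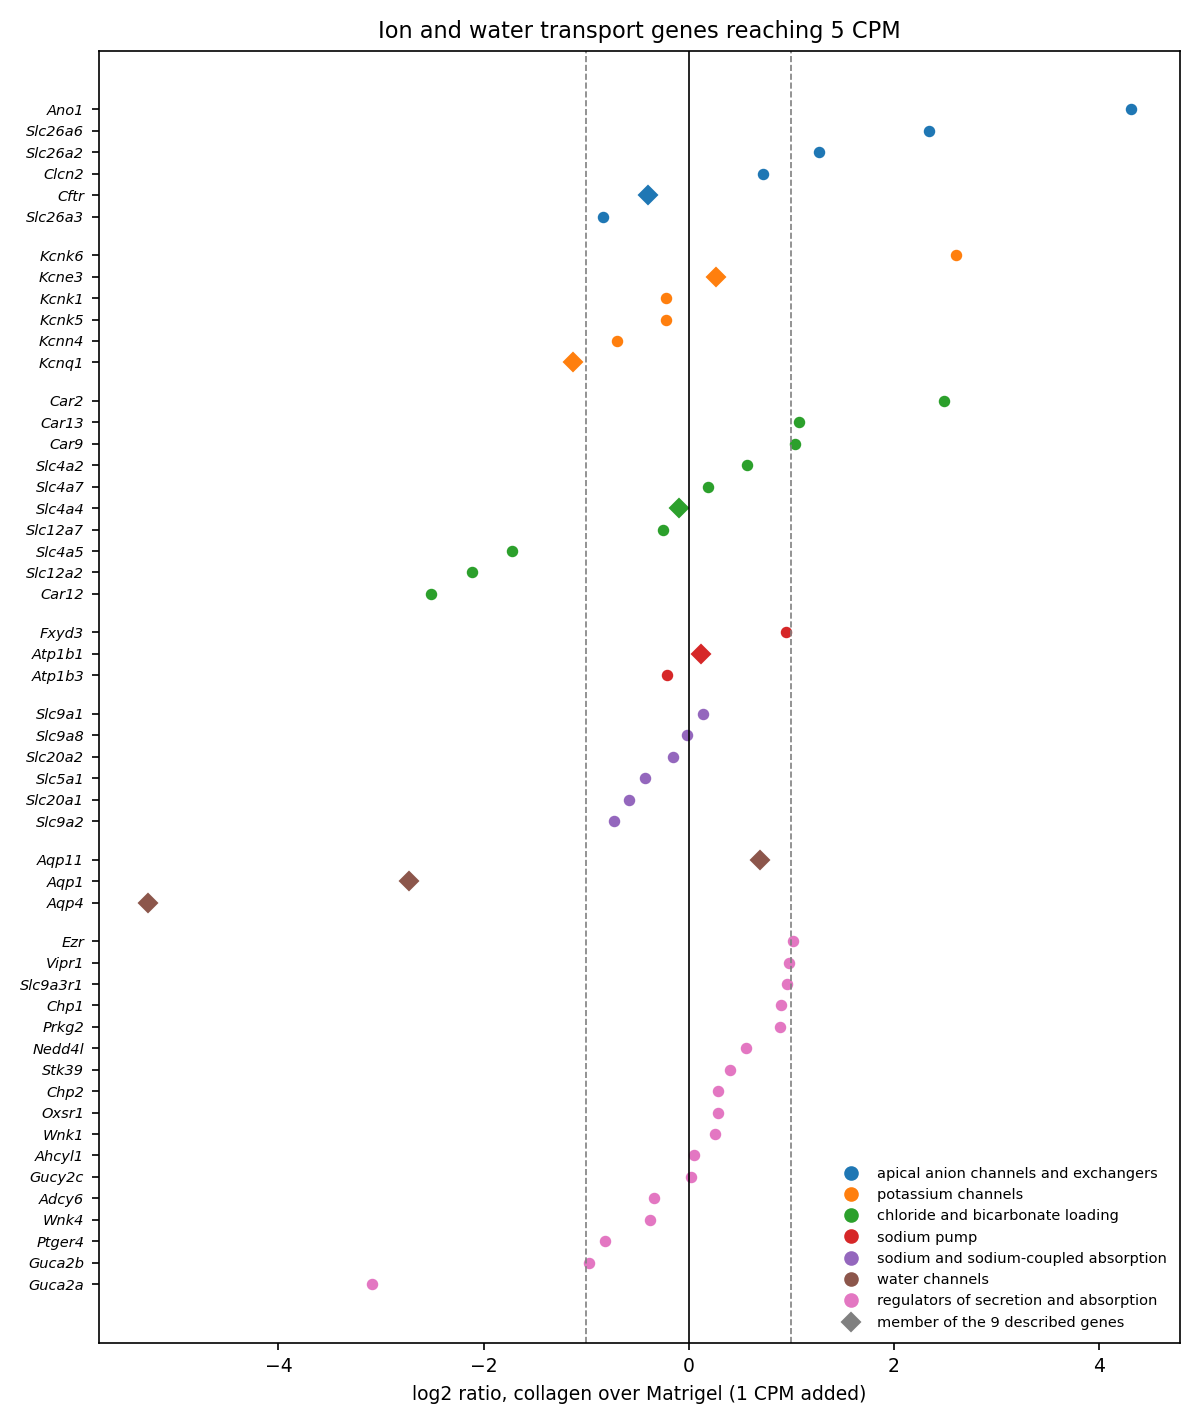
log2 ratio of collagen over Matrigel (1 CPM added) for the transport genes reaching 5 CPM that are reported here, grouped by list; 0 is an equal level. Genes listed as apical anion channels and exchangers lie mostly to the right (higher in collagen, median 0.99), and Aqp1 and Aqp4 far to the left. Sodium pump and sodium absorption genes lie between the dashed lines, which mark 2-fold.

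Atp1b1, the subunit that brings the sodium pump to the membrane, was at 755 CPM (747 to 764) in collagen cells and 697 CPM (694 to 700) in Matrigel cells, a log2 ratio of 0.12. It was seen in 264 of 264 thinned collagen cells and in 1477 of 1477 thinned Matrigel cells. Atp1b3 was at 54.7 CPM in collagen cells and 63.5 CPM in Matrigel cells (-0.21), and Fxyd3, a regulator of the pump, was at 276 and 143 CPM in the same cultures (0.95). The Fxyd3 ratio lay just inside 2-fold and passed it at its highest, with a range from 0.78 to 1.12 over the 15 alternatives.

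Slc9a3, the apical sodium-proton exchanger of absorptive cells, was at 0.320 CPM (0.180 to 0.552, 14 counts) in collagen cells and 1.22 CPM (1.09 to 1.35, 347 counts) in Matrigel cells. Both levels were below 5 CPM, and the log2 ratio of -0.75 became -1.65 with 0.1 CPM added in place of 1 CPM. Its thinned share was 1.89% (0.618 to 4.36) of collagen cells and 4.94% (3.89 to 6.17) of Matrigel cells, against 2.94% (0.358 to 10.2) in cluster 8, which carried markers of secretory lineages; before thinning the shares were 4.46% and 8.94% in collagen and Matrigel. The interval of cluster 8 covers the shares of both cultures, but it rests on 2 of 68 thinned cells. Cluster 8 also holds 9 collagen cells and is part of both cultures, so no background level is read from it. Of the 347 Matrigel counts, 102 lay in the enterocyte-like cluster 9 described below. Few cells held the signal: 3 collagen cells held 51.4% of the collagen counts and 16 Matrigel cells 43.8% of the Matrigel counts.

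The 6 sodium absorption genes reaching 5 CPM lay within 2-fold, with a median log2 ratio of -0.29, and Slc9a2 passed 2-fold in 2 alternatives. The sodium-glucose cotransporter Slc5a1 was at 29.5 CPM in collagen cells and 39.9 CPM in Matrigel cells (-0.43). The exchanger Slc9a2 had a log2 ratio of -0.73, which was -1.09 in thinned cells, -1.03 without the highest 1% of cells and -0.23 with cells weighted equally. The phosphate transporters Slc20a1 (-0.58) and Slc20a2 (-0.16) were also lower in collagen by less than 2-fold, and Slc9a8 was at -0.01 with a sign that turned in 6 of 15 alternatives.

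Aqp1 and Aqp11 are the water channel genes for which promoter sequence can be shown next to opposite directions of difference. Their 250 bases before the RefSeq start are printed 5′ to 3′ in the sense of the gene, on the GRCm38.p6 build, which is not the build of the deposited table; capitals mark the GC box (GGGCGG or CCGCCC on either strand). The Aqp1 window is chr6:55336049-55336298 on the plus strand and the Aqp11 window is chr7:97738248-97738497 on the minus strand.
Aqp1: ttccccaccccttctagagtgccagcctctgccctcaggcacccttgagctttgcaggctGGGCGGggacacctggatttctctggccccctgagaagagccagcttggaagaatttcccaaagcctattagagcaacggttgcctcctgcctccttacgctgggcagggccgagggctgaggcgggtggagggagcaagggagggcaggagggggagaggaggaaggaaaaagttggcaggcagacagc
Aqp11: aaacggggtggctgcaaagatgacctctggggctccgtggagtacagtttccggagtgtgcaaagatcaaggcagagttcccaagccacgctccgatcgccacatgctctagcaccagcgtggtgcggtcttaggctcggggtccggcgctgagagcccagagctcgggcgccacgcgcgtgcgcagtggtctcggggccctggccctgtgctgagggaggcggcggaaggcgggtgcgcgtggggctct
The Aqp1 window is 62.0% G or C with 1 GC box, and the Aqp11 window is 67.2% G or C with 0. A GC box was in 6 of the 9 windows found for 7 of the genes, and in 32.7% of all 32851 windows of the same length. The TCF/LEF core (CTTTGA or TCAAAG) and the CDX core (TTTATG or CATAAA) were in 0 of the 9 windows, and in 13.8% and 10.8% of all windows. These are matches of letters and not binding sites.

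Aqp4, a water channel of the basolateral membrane, was at 2.59 CPM (2.13 to 3.12) in collagen cells and 137 CPM (136 to 139) in Matrigel cells. The log2 ratio was -5.27, and 0.0283% of the genes reaching 5 CPM had a lower one. In thinned cells, Aqp4 was seen in 4.92% (2.65 to 8.27) of collagen cells and 93.4% (92.0 to 94.6) of Matrigel cells, and in 8.63% and 91.5% before thinning. Level and share thus differed in the same direction, and nearly all Matrigel cells carried the transcript. In collagen, 110 counts in 29 cells made up the whole signal, and 3 cells held 60.9% of it; the middle 50% of Matrigel cells ran from 55.7 to 194 CPM.

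The size of the Aqp4 ratio depended on which cells were taken as collagen cells, while its direction did not. It was -5.90 for cells with at least 95% of their own hashtag, -6.05 without the highest 1% of cells, and -4.23 with 5 CPM added. It was -3.21 when the culture was set by a hashtag share of 60%, which moved 49 doublet-named cells into collagen. Of the 110 collagen counts, 55 (50.0%) lay in 29 collagen cells that clustered with Matrigel cells, and the level in the 307 other collagen cells was 1.40 CPM.

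Aqp1, a water channel of apical and basolateral membranes and of vessels, was at 8.39 CPM (7.54 to 9.31) in collagen cells and 61.1 CPM (60.2 to 62.0) in Matrigel cells. The log2 ratio was -2.73, and 0.500% of the genes reaching 5 CPM had a lower one. Aqp1 was seen in 15.9% (11.7 to 20.9) of thinned collagen cells and 89.2% (87.5 to 90.7) of thinned Matrigel cells, and in 19.9% and 91.1% before thinning. It followed Aqp4 in direction with a smaller ratio. The 29 collagen cells in Matrigel clusters held 36.4% of its 357 collagen counts, and its level in the 307 others was 5.78 CPM. The summed endothelial markers, which mark vessel cells, were at 1.83 CPM in collagen and 1.69 CPM in Matrigel.

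Aqp11, a channel of intracellular membranes such as the endoplasmic reticulum, was at 48.9 CPM (46.8 to 51.1) in collagen cells and 29.9 CPM (29.2 to 30.5) in Matrigel cells, a log2 ratio of 0.69. Its thinned share was 75.0% (69.3 to 80.1) of collagen cells and 71.1% (68.7 to 73.4) of Matrigel cells, with overlapping intervals, while before thinning it was 72.0% and 78.2%. The difference was therefore in the level and not detectable in the share of cells. Per cell, the 95th percentile was 159 CPM in collagen and 86.8 CPM in Matrigel. The ratio stayed between 0.60 and 0.77 in the 15 alternatives.

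**Figure D3:**
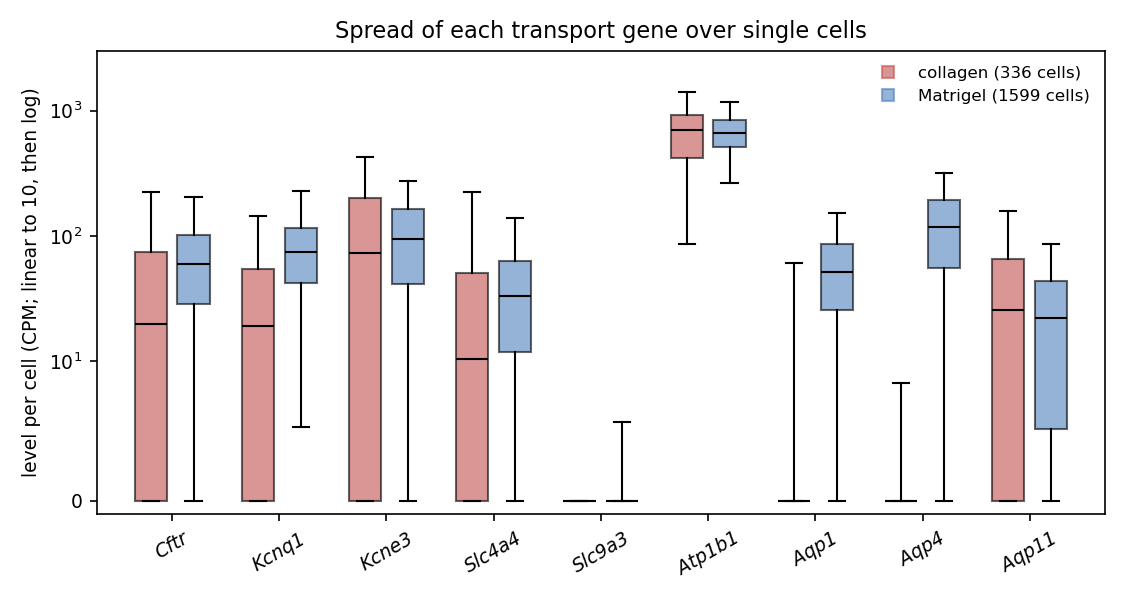
Level of each transport gene in single cells, in CPM on an axis that is linear to 10 and logarithmic above, with collagen left of Matrigel for each gene; boxes span the middle 50% of cells with the median, and whiskers the 5th to 95th percentile. Most collagen cells lie at 0 for Aqp1 and Aqp4, where the Matrigel medians are 52.0 and 118 CPM, while the boxes of both cultures overlap for Kcne3 and Atp1b1.

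Of 17 regulators of this transport reaching 5 CPM, 1 was at least 2-fold higher in collagen and 1 at least 2-fold lower, with a median log2 ratio of 0.28. Each direction thus held 5.88% of the regulators, against 8.21% (higher) and 8.91% (lower) of all genes reaching 5 CPM. The lower share rests on Guca2a, for which no direction is read below. Ezr, which links apical transporters to actin, was at 248 CPM in collagen cells and 122 CPM in Matrigel cells (1.02), and dropped below 2-fold in 5 of 15 alternatives, to 0.94 in thinned cells. Its partner Slc9a3r1, a scaffold that binds Cftr and Slc9a3, was at 107 and 54.5 CPM in the same cultures (0.96). Vipr1, a receptor for the secretory hormone VIP, had a ratio of 0.98. Both lay just inside 2-fold and passed it in some alternatives, up to 1.04 for Slc9a3r1 and 1.03 for Vipr1, and Chp1, a cofactor of sodium-proton exchangers, had one of 0.90.

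The lower regulator was Guca2a, the hormone guanylin, at 3.74 CPM in collagen cells and 39.3 CPM in Matrigel cells (-3.09), in 4 collagen and 45 Matrigel cells. Low values of Guca2a and of the related Guca2b are absent from the table, so their zeros may stand for low counts. With zeros set to the smallest value the ratio of Guca2a was -0.25 and that of Guca2b -0.03, against -0.97. No direction is read for these hormones.

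Clusters of both cultures together, made without any gene of the transport lists, show how the levels were spread inside each culture. Collagen cells were mostly in cluster 1 (282 of its 283 cells, led by Ly6a, Msln and Muc3) and cluster 10 (25 cells, led by Ly6d and Sprr1a). Matrigel cells filled the other 8, among them the stem-like cluster 7 (288 cells, with Gkn3, Olfm4 and Lgr5 among its top 10 genes) and the enterocyte-like cluster 9 (46 cells, with Sis, Rbp2 and Fabp1). Cluster and culture therefore nearly coincide, and a level in cluster 1 is a level in collagen.

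Within Matrigel, Cftr, Kcnq1 and Kcne3 were higher in the stem-like than in the enterocyte-like cluster, and Slc9a3 and Slc4a4 were lower. Cftr was at 99.5 CPM (96.7 to 102) in stem-like cluster 7 and 45.7 CPM in enterocyte-like cluster 9, and Kcnq1 at 112 CPM (109 to 115) and 31.2 CPM in the same clusters. Kcne3 had the widest gap of these, at 141 CPM (138 to 145) in cluster 7 and 14.8 CPM (12.3 to 17.7) in cluster 9. Slc9a3 ran the other way, at 0.822 CPM in cluster 7 and 12.4 CPM (10.1 to 15.1) in cluster 9, where 35.9% of 39 thinned cells had a count. Slc4a4 was also lower in cluster 7, at 44.0 CPM against 90.5 CPM (84.1 to 97.2) in cluster 9. The cells come from 1 suspension, so these are descriptions of it.

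The water channels split in the same way. Aqp1 was at 79.3 CPM in cluster 7 and 12.2 CPM in cluster 9, and Aqp4 at 155 CPM and 32.2 CPM in the same clusters, so that even its enterocyte-like level lay above the 1.29 CPM (0.951 to 1.70) of collagen cluster 1. Aqp11 was at 28.6 CPM in cluster 7 and 77.8 CPM (71.9 to 84.1) in cluster 9, where 39 of 39 thinned cells had a count. Its level in collagen cluster 1 was 52.7 CPM (50.4 to 55.1), between the stem-like and the enterocyte-like level. Atp1b1 was at 820 CPM in cluster 7 and 1039 CPM in cluster 9.

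Collagen cluster 1 matched neither named Matrigel cluster across the genes. Its Kcne3 level of 148 CPM (144 to 152) was near that of stem-like cluster 7, its Slc9a3 level of 0.302 CPM was below that of both, and its Aqp4 and Aqp1 levels (1.29 and 5.93 CPM) were below those of every Matrigel cluster. Cluster 10, the smaller collagen cluster, had 2.24 CPM of Cftr (0.462 to 6.55, 3 counts) and 1 count of Kcne3, with 62.7 CPM (50.0 to 77.7) of Slc4a4. Its cells were shallow, with a median of 45060 counts. Cluster 2, with 93 Matrigel and 7 collagen cells, had the highest Cftr (213 CPM) and Kcnq1 (255 CPM) levels; its cells had a median of 43880 counts and 18.8% mitochondrial counts, and without it the ratios of Cftr and Kcnq1 were -0.39 and -1.08.

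**Figure D4:**
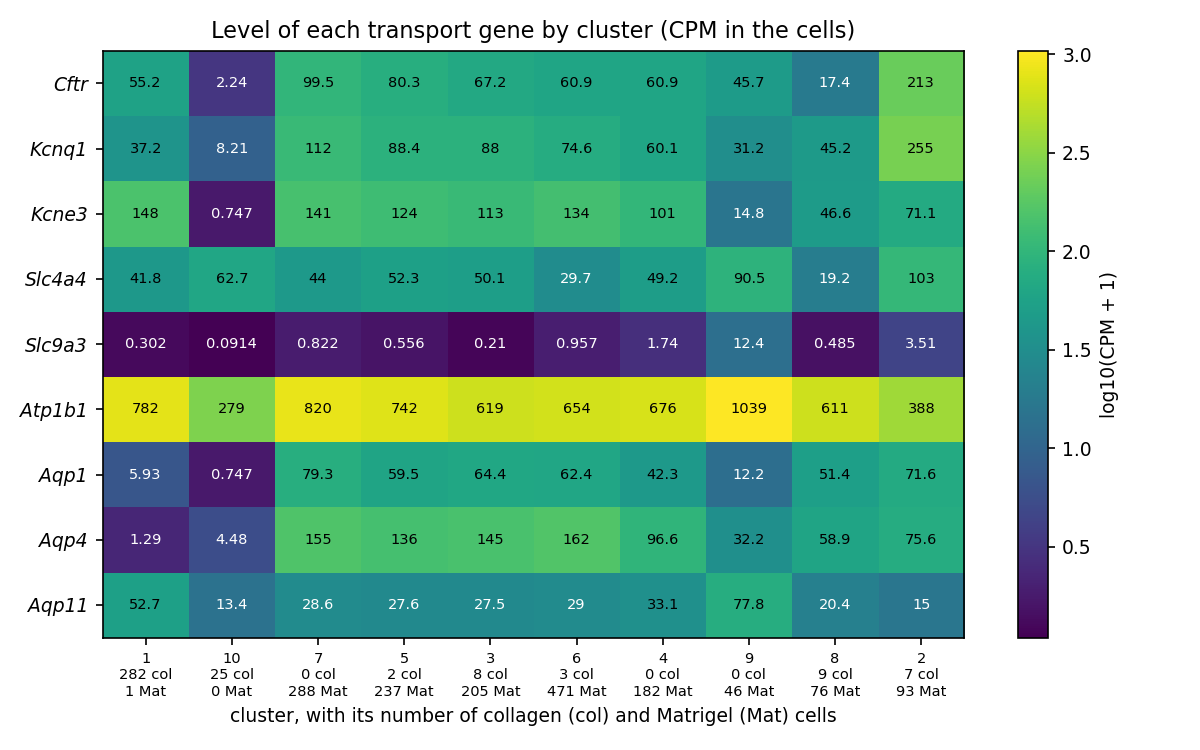
Level of each transport gene by cluster, in CPM printed in each square (lighter colour for a higher level, on a log scale), with the number of collagen and Matrigel cells of each cluster on the horizontal axis. Aqp4 is at 1.29 CPM in collagen cluster 1 and at 32.2 CPM or more in every cluster made mostly of Matrigel cells, while Slc9a3 reaches 12.4 CPM in cluster 9.

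Secretory and absorptive transcripts were looked for in the same thinned cells. In collagen, 2 of 264 cells held both Cftr and Slc9a3, 173 held Cftr alone, 3 held Slc9a3 alone and 86 held neither. In Matrigel, 62 of 1477 cells held both, 1264 held Cftr alone, 11 held Slc9a3 alone and 140 held neither. Most Matrigel cells with Slc9a3 thus also had Cftr, a gene seen in 89.8% of all Matrigel cells; the product of both shares gives 66 cells.

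For other pairs, the count that the product of their single shares gives is set in brackets below. Where both genes are seen in most cells, this product leaves the count little room to differ. Kcnq1 and Kcne3 were both seen in 146 (136) of 264 collagen cells and 1283 (1264) of 1477 Matrigel cells, and Cftr and Slc12a2 in 151 (138) collagen cells and 1315 (1307) Matrigel cells. Cftr and Ano1 were both seen in 139 (138) collagen cells and 163 (167) Matrigel cells, and Aqp1 and Aqp4 in 4 (2) collagen cells and 1249 (1230) Matrigel cells. Cftr and Kcne3 were both seen in 155 (141) collagen cells and 1221 (1203) Matrigel cells, and Cftr and Slc4a4 in 91 (95) and 1076 (1056). Nothing about the pairs is read from these counts.

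Spearman correlations over thinned cells describe which genes varied most alike; all cells share a library, so no test is given. Over 264 collagen cells, Cftr and Kcne3 correlated at 0.40, Cftr and Kcnq1 at 0.28, and Kcnq1 and Kcne3 at 0.28. Over 1477 Matrigel cells the same pairs were at 0.12, 0.16 and 0.10. These 3 pairs had higher values in collagen cells, a difference that was not tested. The fourth secretory gene, Slc4a4, did not follow: its correlations in collagen and in Matrigel were -0.12 and 0.12 with Cftr, -0.10 and -0.03 with Kcne3, and 0.04 and 0.04 with Kcnq1.

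Among genes reaching 50 CPM (2766 in collagen and 2717 in Matrigel), the most alike in collagen cells to both Kcne3 (0.63) and Cftr (0.49) was Cldn2, which forms a cation and water pore between crypt cells. For Kcnq1 it was Ppp1r1b (0.37) in collagen, a phosphatase inhibitor, and for Aqp11 it was Smim24 (0.40). In Matrigel cells, the stem cell receptor Lgr5 was most alike to Kcnq1 (0.32) and Cftr (0.26), and Olfm4, a stem cell marker, to Aqp4 (0.33). The chloride loader Slc12a2 was most alike to Aqp1 in both cultures, at 0.36 in collagen and 0.29 in Matrigel, and to Aqp4 in collagen (0.26), where few cells had an Aqp4 count. The glutathione transferase gene Gsta1 was most alike to Slc9a3 (0.21) and Aqp11 (0.17) in Matrigel, Bsg to Slc4a4 (0.21), Pdgfa to Atp1b1 (0.28) and Gnl3 to Kcne3 (0.26), all weak. The remaining genes most alike in collagen were Nlrp6 to Atp1b1 (0.37) and Fuom to Slc4a4 (0.34). For Slc9a3, seen in 5 thinned collagen cells, no gene is given.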

How the data were processed

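Epithelial cells of both cultures were pooled and captured together on the BD Rhapsody system, and cDNA and hashtag libraries were made by TAS-Seq, per the labels' protocols. The submitters' processing notes name cutadapt 4.1, STARsolo 2.7.10a, R 4.2.1 and the GRCm39 build, with no roles; the sources used here do not give the annotation. The authors deposited an expression table of unscaled expected counts for 37172 genes and 2090 cells; 75.6% of values above 0 were whole within 1e-06. The sources used here do not say whether copies of a molecule were collapsed; if not, intervals are too narrow. The authors also deposited whole-number hashtag counts for each barcode; 9 hashtag columns other than those of the cultures were not used. Culture was taken from the hashtag in each cell name, and 139 cells named as doublets were left out; no doublet caller was run.

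Cells needed 500 detected genes and no more than 30% mitochondrial counts; 16 Matrigel and 0 collagen cells failed. Counts were summed per culture and scaled to 1000000 (CPM), sums were rounded only for intervals, and the ratio was log2((collagen CPM + 1)/(Matrigel CPM + 1)); for low genes this is closer to 0 than the true ratio. With 1 suspension per culture no count model was run. For shares, cells were thinned without replacement to 77972 counts, the 10th percentile, and 72 collagen and 122 Matrigel cells below it were left out. Of cluster 10, 2 of 25 cells remained, and of cluster 2, 24 of 100. Thinned shares, pairs and correlations therefore hardly cover these clusters. Clusters came from scanpy 1.11.5 (2000 variable genes without the transport lists, 30 principal components, 15 neighbours, Leiden resolution 0.6, 1.0 as the alternative). Python 3.11.15, numpy 2.4.6, scipy 1.17.1 and pandas 2.3.3 were used, and the calculations were tested on simulated data.

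The 9 genes, the 7 transport lists and the markers were chosen with earlier results of these data known. Named are all 9 genes, up to 6 others per list reaching 10 CPM with the largest absolute ratio, and the 3 genes most alike to each of the 9 per culture, of which the first are printed. Of 97 list genes, 2 (Kcne4 and Aqp8) were not analysed here. Another list gene, which the counts include, is not reported here. The alternatives without cluster 2 and without cells in the other culture's clusters were chosen after seeing the data. Promoter windows are from RefSeq (GRCm38.p6).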

Additional observations from a re-analysis of the deposited data

Results flagged for a closer look

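The 139 cells named as doublets were left out of the main comparison between the cultures and used only where the culture was set by hashtag share, and the 9 transport genes were all detected in the 137 of them that passed the filters on cells. These cells carry a signal in data outside the main measurement. Cftr was at 62.8 CPM in them, Kcnq1 at 83.9 CPM, Kcne3 at 120 CPM and Slc4a4 at 47.4 CPM. Atp1b1 was at 705 CPM and Slc9a3 at 0.700 CPM. Aqp1 was at 53.2 CPM, Aqp4 at 121 CPM and Aqp11 at 36.5 CPM. For 8 of the 9 genes the level lay between the collagen and the Matrigel level, and for Slc4a4 it lay above both, at 41.4 CPM in collagen and 44.3 CPM in Matrigel. Where each such cell came from was not tested.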

How the results depend on the processing

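For each gene, 15 alternatives were computed, and the direction of 8 of the 9 transport genes was the same in all 15; that of Slc4a4 turned in 1. The log2 ratio ranged from -0.48 to -0.36 for Cftr, -1.26 to -1.02 for Kcnq1, 0.18 to 0.31 for Kcne3, 0.03 to 0.15 for Atp1b1, -3.20 to -2.18 for Aqp1, -6.05 to -3.21 for Aqp4, 0.60 to 0.77 for Aqp11, -1.65 to -0.22 for Slc9a3 and -0.22 to 0.09 for Slc4a4. The counts of the 9 genes at least 2-fold higher (0) and lower (3) in collagen were the same in every alternative except a limit of 1.5-fold, by construction a wider one, where 1 was higher and 3 were lower. With that limit 15 of the transport list genes were higher and 12 lower, against 8 and 7, and 18.0% and 19.1% of all genes reaching 5 CPM were higher and lower by it; the other alternatives gave 6 to 10 higher and 6 to 8 lower. Scaling by the median ratio of 2279 genes subtracted a shift of -0.03, so that ratios were slightly higher, as for Cftr at -0.36. Levels of Slc9a3, at 14 collagen counts, and of Aqp4, at 110, are limited by depth. With 1 suspension per culture no replicate could be left out. No paired analysis was possible because the result comes from no test.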

Other observations

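At the finer clustering, with 14 clusters, the collagen cells were mainly in 1 cluster of 230 cells and another of 79 cells, 78 of them from collagen. The smaller held less of the secretory genes: Kcne3 was at 45.7 CPM (41.3 to 50.5) in it and 168 CPM (164 to 173) in the larger and Cftr at 20.4 and 62.4 CPM in the same order. Aqp11 was at 23.1 CPM in the smaller and 58.8 CPM in the larger, and Slc12a2 at 32.2 and 121 CPM. Slc4a4 ran the other way, at 79.6 CPM (73.7 to 85.9) in the smaller and 32.4 CPM (30.5 to 34.5) in the larger, and Ano1 was at 95.1 CPM and 81.7 CPM. The median count per cell was 109651 in the smaller and 128456 in the larger. These are values within 1 suspension.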
